A study of Mus musculus with 9 samples.

Results

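The chemokine ligands were followed in retinal RNA-seq libraries as 10 genes chosen by symbol, Ccl2, Ccl3, Ccl4, Ccl5, Ccl12, Ccl28, Cxcl10, Cxcl12, Cxcl16 and Cx3cl1, and each of the 10 had 1 entry among the 22337 genes measured. Retinas were taken at P28 from 3 groups with 3 libraries each. WT were C57 BL/6J mice that received no treatment. NS-treated rd10 mice received normal saline, and MSC-EVs-treated rd10 mice received extracellular vesicles of mesenchymal stem cells from human umbilical cord, each as 1 μl injected into the vitreous of both eyes at P14 and again at P21. In rd10 mice the rods, and later the cones, die because of a defect in Pde6b, a gene of the phosphodiesterase used in phototransduction. The WT mice were neither injected nor littermates of the rd10 mice and came from another supplier, so genotype, injection and origin cannot be told apart in a comparison with WT. The labels do not say whether the libraries of a group came from different animals, and the p-values therefore measure only the spread between these libraries.

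Chemokines are small proteins, mostly secreted, that bind G protein-coupled receptors on leukocytes and direct their migration. They are grouped into CC, CXC and CX3C families by the spacing of the cysteines near the amino end. Cx3cl1 (fractalkine) and Cxcl16 are made as membrane proteins on a mucin-like stalk and are released by the proteases Adam10 and Adam17. In the retina, neurons are a known source of Cx3cl1, whose receptor Cx3cr1 is carried by microglia, the resident macrophages. Ccl2 and Ccl12 are known attractants of monocytes carrying Ccr2, while Ccl3, Ccl4 and Ccl5 attract macrophages and T cells. Cxcl10 is a classical interferon-induced ligand of Cxcr3 on activated T and NK cells.

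The estimated counts summed to between 19491717 and 62532343 per library, and the deepest was MSC-EVs replicate 3. A single count stood for 0.016 to 0.0513 CPM, the count scaled to library size. The retinal origin was checked on Gnat1, the rod transducin, which measured 14800 to 16300 CPM in WT, 2930 to 4000 CPM in NS-treated rd10 and 2790 to 4350 CPM in MSC-EVs-treated rd10. Y-linked genes summed to 183 and 189 CPM in MSC-EVs replicates 1 and 2 and to at most 0.5 CPM in the other 7 libraries, and the labels do not give the sex of the animals.

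To compare the ligands with each other, the authors' FPKM was used, which divides by transcript length as well as by depth. In WT, 3 of the 10 ligands made up nearly all of their summed FPKM. The order given here covers only these 10. Outside them, Ccl27a, whose reads are of uncertain origin as described below, averaged 12.2 FPKM in WT. Cx3cl1 stood first at 33.5 ± 0.303 FPKM (SD, n = 3), Cxcl12 came next at 10.3 ± 1.23 FPKM and then Cxcl16 at 6.99 ± 0.734 FPKM, with no overlap between neighbours in this order. Ccl28 followed at 0.403 ± 0.0635 FPKM and Cxcl10 at 0.317 ± 0.0569 FPKM, and these neighbours overlapped. The other 5 ligands each averaged under 0.2 FPKM in WT, and Ccl3 had no count in any WT library. The 10 ligands summed to 49.4, 52.8 and 53.4 FPKM in the WT libraries, to 93.8, 87.2 and 85.1 FPKM in NS-treated rd10 and to 90.9, 103 and 82.2 FPKM in MSC-EVs-treated rd10. FPKM carries no TMM normalization, and the groups stood closer in CPM. There the 10 ligands summed to 168 to 178 CPM in WT, 197 to 226 CPM with NS and 221 to 223 CPM with MSC-EVs. Cx3cl1 remained the most abundant of the 10 ligands in every library. It made up 63% to 67.1% of their sum in WT, 46% to 57.1% in NS-treated rd10 and 42.3% to 62.2% in MSC-EVs-treated rd10. Below it the order differed. In NS-treated rd10, Cxcl16 came second at 17.0 ± 0.996 FPKM and lay above Cxcl12, at 9.33 ± 0.451 FPKM, in every library, while Cxcl12 and Cxcl10, at 7.1 ± 2.26 FPKM, overlapped. In MSC-EVs-treated rd10, the ranges of all neighbours below Cx3cl1 overlapped.

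**Figure D1:**
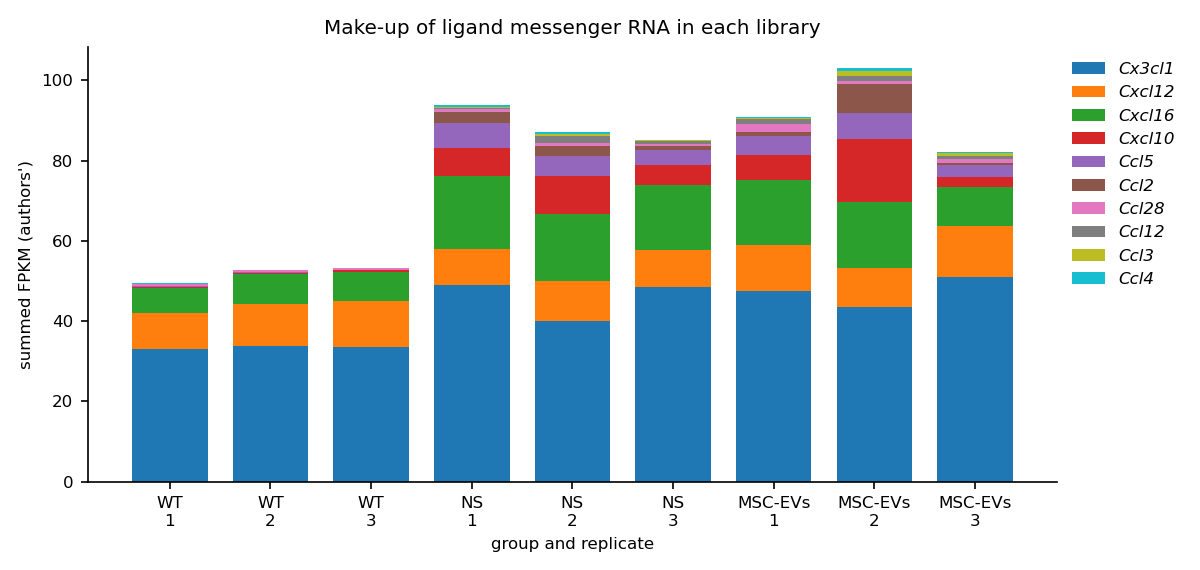
Summed FPKM of the 10 chemokine ligands in each of the 9 libraries, stacked by gene, with the group and replicate on the horizontal axis. The WT bars, 49.4 to 53.4 FPKM high, consist almost only of Cx3cl1, Cxcl12 and Cxcl16, and the rd10 bars, 82.2 to 103 FPKM high, add visible layers of Cxcl10, Ccl5 and Ccl2. FPKM carries no TMM normalization, and the sums in CPM, given in the text, stood closer together.

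To find which ligands differ in the degenerating retina, NS-treated rd10 was compared with WT on 6 libraries with the quasi-likelihood test of edgeR, fitted to every gene with enough counts. A gene was called when its Benjamini-Hochberg adjusted p was under 0.05 and its log2 fold change at least 1 in size. Among the 10 ligands, 7 had enough counts to be tested and 4 were called, all 4 higher in NS-treated rd10: Ccl2, Ccl5, Cxcl10 and Cxcl16. Over all 14644 genes tested, 9.16% were called higher and 3.56% lower. Ccl2, Ccl5 and Cxcl10 had fewer than 10 counts in every WT library and passed the filter only through the rd10 libraries. Of the called ligands Cxcl16 alone had at least 10 counts in every library of both groups. Part of its reads is of uncertain origin, as described below. The tested ligands had a median log2 fold change of 1.09, beside 0.005 for all genes tested. This median includes the 3 ligands that were tested only because they are high in rd10, so it does not describe the ligands as a group. Retinal tissue was measured in bulk, and more cells of a type cannot be told apart from more RNA per cell.

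Cxcl10 lies on chromosome 5 from 92346638 to 92348889 on the minus strand of GRCm38. It had 8, 7 and 9 counts in the WT libraries, or 0.359, 0.313 and 0.45 CPM. In NS-treated rd10 it had 214, 202 and 113 counts, or 7.23, 9.9 and 5.17 CPM. All NS-treated libraries lay more than 10-fold above all WT libraries. The fitted log2 fold change was 4.3 (SE 0.31, edgeR adjusted p = 2.74e-07), a 19.6-fold difference with a 95% interval of 3.62 to 4.97 on the log2 scale. Of the 50-base stretches in its transcripts, 3.6% are shared with Art3, which overlaps it on the other strand.

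The promoter of Cxcl10 is shown because the gene had the most rd10 counts among the ligands nearly absent from WT and because its window held several of the motifs searched. RefSeq windows on GRCm38.p6, from 250 bases before to 50 bases after the transcription start, matched 6 of the 10 ligands: Ccl3, Ccl12, Ccl28, Cxcl10, Cxcl12 and Cx3cl1. Ccl2, Ccl4, Ccl5 and Cxcl16 had no entry. On both strands of each window, 4 motifs were searched: the interferon-stimulated response element (ISRE, read as a pair of TTTC words spaced by any 2 bases), the interferon-gamma element GAS (TTCNNNGAA), AP-1 (TGANTCA) and kappa B. In the sequences below, which give the 250 bases before the RefSeq start from 5′ to 3′ on the gene's strand, capitals mark the matches.
Cxcl10, chr5:92348890-92349139, minus strand: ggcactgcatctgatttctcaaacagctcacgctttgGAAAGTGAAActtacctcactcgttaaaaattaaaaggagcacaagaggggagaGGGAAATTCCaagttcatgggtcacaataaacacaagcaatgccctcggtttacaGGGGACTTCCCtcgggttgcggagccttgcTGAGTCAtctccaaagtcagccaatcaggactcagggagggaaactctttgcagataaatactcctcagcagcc
Cxcl12, chr6:117168285-117168534, plus strand: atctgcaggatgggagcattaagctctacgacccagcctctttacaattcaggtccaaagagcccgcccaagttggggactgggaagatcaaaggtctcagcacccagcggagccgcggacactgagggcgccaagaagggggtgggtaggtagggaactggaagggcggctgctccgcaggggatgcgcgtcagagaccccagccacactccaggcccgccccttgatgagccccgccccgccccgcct
Cx3cl1, chr8:94771930-94772179, plus strand: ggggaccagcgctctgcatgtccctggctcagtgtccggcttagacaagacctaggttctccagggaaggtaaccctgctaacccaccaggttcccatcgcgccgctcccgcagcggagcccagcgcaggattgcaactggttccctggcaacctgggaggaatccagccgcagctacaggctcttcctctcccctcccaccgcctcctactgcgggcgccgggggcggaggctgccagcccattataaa

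In the Cxcl10 window, the ISRE match lay 213 to 204 bases before the start, in the first capitals. The kappa B matches lay 159 to 150 and 104 to 94 bases before the start, and the second of them joins overlapping matches. The AP-1 match lay 74 to 68 bases before the start. Over all 32851 windows of the same length, 3.44% held the ISRE, 8.3% the GAS, 7.81% the AP-1 and 8.46% the kappa B motif, and 11 windows (0.0335%) held the ISRE, AP-1 and kappa B motifs together, a combination counted after the Cxcl10 window had been seen. The windows of Cxcl12 and Cx3cl1 held none of the 4 motifs, and neither did those of Ccl3 and Ccl12. Those of Cxcl12 and Cx3cl1 are shown for contrast, as ligands abundant in WT. The sequence shown for Cx3cl1 ends at 94772179, whereas GENCODE starts the gene at 94772009. Part of it therefore lies inside the gene as GENCODE places it, and bases before that start are only partly covered. Ccl28 had an AP-1 match that began at base 21 of the transcript. No ligand's window held a GAS match. Cxcl12 and Cx3cl1 each had 14 CpG dinucleotides in the 250 bases, against 5 in Cxcl10, 4 in Ccl28, 2 in Ccl3 and 1 in Ccl12, with a median of 6 over all windows. A match describes these letters only and does not show that a factor binds there.

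Ccl5 (RANTES) lies on chromosome 11 from 83525778 to 83530518. The WT libraries held 3, 2 and 2 counts, or 0.135, 0.0895 and 0.1 CPM. In NS-treated rd10 it had 95, 52 and 42 counts, or 3.21, 2.55 and 1.92 CPM, and the groups did not overlap. The fitted log2 fold change was 4.5 (SE 0.41, edgeR adjusted p = 1.72e-06). The ratio of the summed counts was 24.3, with a 95% interval of 11.6 to 61.2 from counting error alone.

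Ccl2 (MCP-1) lies on chromosome 11 from 82035571 to 82037453. The WT libraries held 0, 1 and 0 counts. It had 66, 41 and 17 counts in NS-treated rd10, or 2.23, 2.01 and 0.778 CPM. The ratio of the summed counts was 112, with a 95% counting interval of 19.6 to 4440. The fitted log2 fold change was 6.34 (SE 0.8, edgeR adjusted p = 2.84e-05), a value that depends on the prior count when WT holds 1 count, and it was 8.27 without WT replicate 2, which holds that count. Ccl2 is overlapped on the other strand by Gm17268, although none of its 50-base stretches is shared with another gene.

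Cxcl16, the membrane-bound ligand of Cxcr6, lies on chromosome 11 from 70453983 to 70459984. It measured 15.1, 16.5 and 15.1 CPM in WT and 35.4, 32.1 and 32.1 CPM in NS-treated rd10. Each group was tight and the lowest NS-treated library stood far above the highest WT library. The log2 fold change was 1.09 (SE 0.08, edgeR adjusted p = 4.47e-07), or 2.14-fold, just past the limit of 1. With 16.9% of its 50-base stretches shared with Zmynd15 on the other strand, some of its reads cannot be assigned with certainty.

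The 3 ligands that failed the filter, Ccl3, Ccl4 and Ccl12, were all rare. Ccl3 (MIP-1α) had 0, 0 and 0 counts in WT and 5, 9 and 5 counts in NS-treated rd10, which makes it at least 5.7-fold higher against a floor of 3 counts over the WT group. With the counting error of the NS libraries included, the lower 95% limit of the ratio was 4.2. Ccl12, known as MCP-5, had 1 count in each WT library and 7, 18 and 7 counts in NS-treated rd10, a ratio of summed counts of 9.59 with a 95% counting interval of 3.0 to 49.0. Ccl4 (MIP-1β) had 1, 0 and 1 counts in WT and 6, 6 and 0 counts in NS-treated rd10, a ratio of 5.4 with an interval of 1.2 to 49.6, and its libraries overlapped. Ccl3 and Ccl12 were called when no filter was used (edgeR adjusted p = 0.00347 and 0.0038) and Ccl4 was not (edgeR adjusted p = 0.135). Ccl3, Ccl4 and Ccl5 lie close together on chromosome 11, Ccl3 from 83647844 to 83649355 and Ccl4 from 83662584 to 83664683. Ccl12, from 82101845 to 82103400, is near Ccl2.

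The remaining 3 ligands were abundant or detectable in WT and were not called. Cx3cl1, on chromosome 8 from 94772009 to 94782427, measured 116, 119 and 118 CPM in WT and 153, 125 and 151 CPM in NS-treated rd10. The groups did not overlap, the log2 fold change was 0.28 (SE 0.07, edgeR adjusted p = 0.00622), and the size of 1.21-fold stayed under the limit. Cxcl12, on chromosome 6 from 117168535 to 117181367, measured 34.5, 36.7 and 42.7 CPM in WT and 21.6, 21.7 and 23.2 CPM in NS-treated rd10. Its log2 fold change was -0.78 (SE 0.09, edgeR adjusted p = 1.09e-05), the only negative one among the tested ligands. Ccl28, a mucosal ligand of Ccr10 on chromosome 13 from 119623819 to 119654359, measured 1.79, 1.75 and 1.35 CPM in WT and 2.23, 2.79 and 1.69 CPM in NS-treated rd10. Its groups overlapped, with a log2 fold change of 0.45 (SE 0.26, edgeR adjusted p = 0.151). When only the adjusted p was asked for, 5 ligands were higher and 1 lower, where 61.3% of all genes passed. Groups did not overlap in 6 of the 7 tested ligands, beside 66.9% of all genes tested. The 3 ligands that passed the filter only through rd10 are in both counts.

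**Figure D2:**
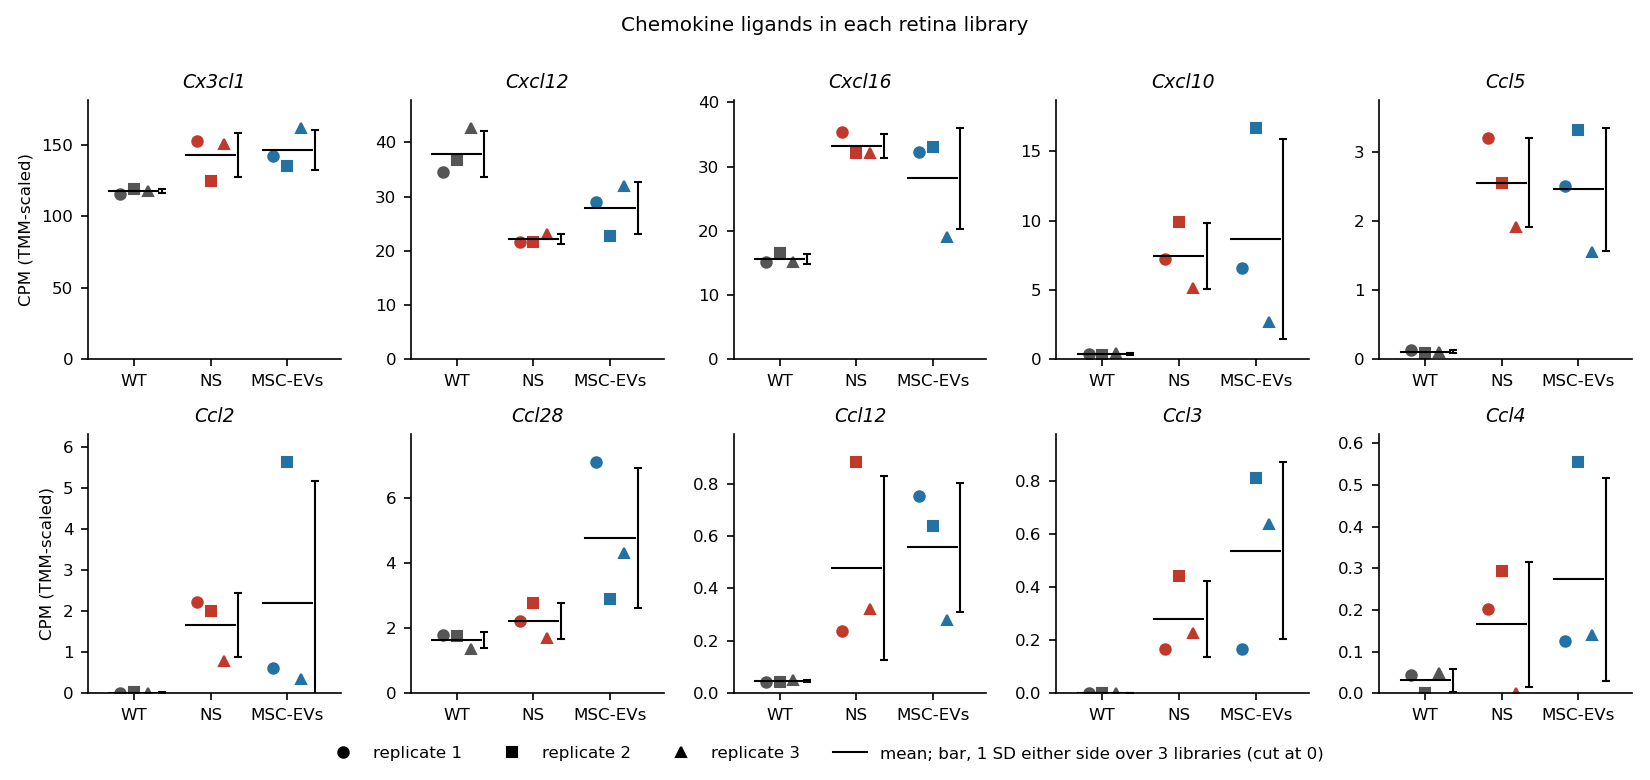
TMM-scaled CPM of the 10 ligands in each library, with a vertical axis from 0 in every panel, points for libraries (shape gives the replicate), a line for the mean and a bar for 1 SD on either side, cut at 0 (n = 3). Cxcl10, Ccl5 and Ccl2 sit near 0 in WT and higher in rd10, Cxcl12 sits between 34.5 and 42.7 CPM in WT and between 21.6 and 23.2 CPM in NS-treated rd10, and MSC-EVs replicate 2 is the top point of its group for 6 ligands.

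Cxcl12 (SDF-1), the ligand of Cxcr4 and of the scavenging receptor Ackr3, gave another answer on the FPKM scale. Its FPKM was 8.99, 10.54 and 11.43 in WT, 9.05, 9.85 and 9.09 in NS-treated rd10 and 11.4, 9.65 and 12.66 in MSC-EVs-treated rd10, and all 3 groups overlapped. With limma on log2(FPKM + 1), the NS against WT difference was -0.13 (limma adjusted p = 0.266). The transcript length behind each FPKM was worked out from the count, the FPKM and the library's total. For Cxcl12 this implied length was 3546, 3242 and 3440 bases in WT, 2470, 2307 and 2686 bases in NS-treated rd10 and 2636, 2443 and 2600 bases in MSC-EVs-treated rd10. Every rd10 library thus had a shorter implied length than every WT library. The ratio of NS-treated rd10 to WT was 0.73, or -0.45 on the log2 scale, and only 12 of the 11024 genes with enough counts (0.109%), Cxcl12 included, were at least as far from no change. For MSC-EVs-treated rd10 against WT the log2 ratio was -0.41, with 16 genes (0.145%) at least as far, and between the rd10 groups it was 0.04, with 25.7% at least as far. Cxcl16 and Cx3cl1, the other ligands with enough counts, had log2 ratios of -0.01 and 0.0 between NS-treated rd10 and WT. The annotation lists coding transcripts of 5627, 3132 and 1878 bases for Cxcl12, which differ in their last exons. The values are per gene, so single transcripts were not measured. Cxcl12 was examined in this way after its CPM and FPKM had been seen to differ.

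**Figure D3:**
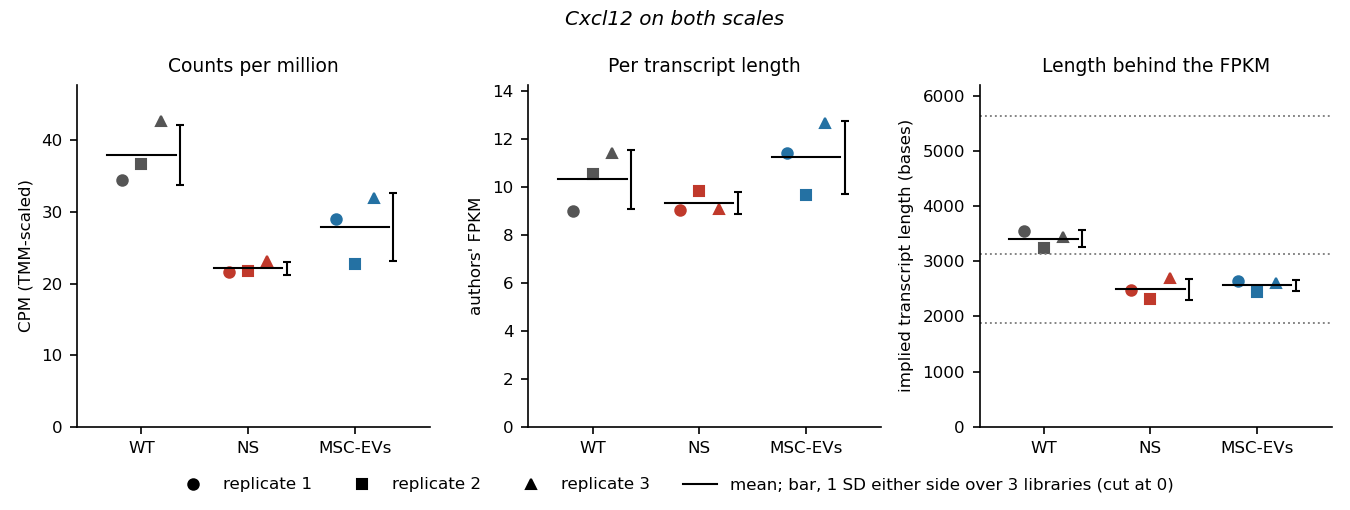
Cxcl12 in each library as TMM-scaled CPM, as the authors' FPKM and as the implied transcript length (bases), with the mean and 1 SD on either side (n = 3). That length is worked out from the unscaled count, the FPKM and the library's total, not from the TMM-scaled CPM. Dotted lines mark the annotated coding transcripts of 5627, 3132 and 1878 bases. The rd10 libraries lie below WT in CPM and implied length, while the FPKM points of the 3 groups overlap.

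The second comparison asked whether the ligands differed between MSC-EVs-treated and NS-treated rd10. Y-linked genes summed to 183 and 189 CPM in MSC-EVs replicates 1 and 2 and to at most 0.5 CPM in every NS-treated and WT library. Treatment and this difference are thus partly confounded when MSC-EVs is compared with either group. With Y-linked expression as a covariate, 0 ligands were called between the rd10 groups, and the values that changed sign are given in the last section. No ligand was called between MSC-EVs-treated and NS-treated rd10 by edgeR, where 9 of the 10 had enough counts and 0.0542% of all 14765 genes tested were called higher and 0.00677% lower. At an unadjusted p under 0.05 there were 2 ligands, Ccl28 and Cxcl12, beside 20.2% of all genes tested, and DESeq2 called 1 ligand, Ccl28. Only Ccl28 had libraries that did not overlap between the 2 groups, which was so for 26.2% of all genes tested.

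Ccl28 measured 7.11, 2.9 and 4.32 CPM in MSC-EVs-treated rd10, from 170, 68 and 278 counts, against 2.23, 2.79 and 1.69 CPM with NS. The lowest MSC-EVs library was barely above the highest NS library. Its log2 fold change was 1.1 (95% interval 0.34 to 1.85, SE 0.33), with an unadjusted p of 0.00981 and an edgeR adjusted p of 0.124. By DESeq2 the adjusted p was 0.0321, and without MSC-EVs replicate 2 the log2 fold change was 1.34 (edgeR adjusted p = 0.0271). It was 0.72 without MSC-EVs replicate 1 (edgeR adjusted p = 0.337) and 0.93 without NS replicate 3 (edgeR adjusted p = 0.351), under the limit of 1 both times. Cxcl12 measured 29, 22.7 and 32 CPM with MSC-EVs and overlapped the NS-treated libraries, its log2 fold change being 0.34 (95% interval 0.06 to 0.63, edgeR adjusted p = 0.169).

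For the ligands that were nearly absent from WT, the spread within the MSC-EVs group was large and the intervals were wide. Cxcl10 measured 6.56, 16.7 and 2.72 CPM with MSC-EVs, which reached both above and below the NS-treated libraries. Its log2 fold change was 0.2 (95% interval -1.57 to 1.96, edgeR adjusted p = 0.913). Ccl2 had 15, 132 and 22 counts with MSC-EVs, or 0.627, 5.63 and 0.342 CPM, so that replicate 2 alone lay above the NS-treated libraries and the other two lay below them. Its log2 fold change was 0.32 (95% interval -2.61 to 3.24, edgeR adjusted p = 0.914), and without MSC-EVs replicate 2 it was -1.88 (edgeR adjusted p = 0.0692). Without that library the value for Cxcl10 was -0.72 (edgeR adjusted p = 0.405). Ccl5 measured 2.51, 3.33 and 1.55 CPM after MSC-EVs and overlapped the NS-treated libraries, its log2 fold change being -0.09 (95% interval -0.79 to 0.62, edgeR adjusted p = 0.911).

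Cxcl16 measured 32.3, 33.1 and 19.1 CPM with MSC-EVs, and replicate 3 stood apart from the others. Its log2 fold change against NS was -0.24 (95% interval -0.72 to 0.23, edgeR adjusted p = 0.544). Cx3cl1 measured 142, 135 and 162 CPM after MSC-EVs, its log2 fold change being 0.04 (95% interval -0.18 to 0.26, edgeR adjusted p = 0.862), the narrowest interval of the ligands tested. Ccl3 had 4, 19 and 41 counts (0.167, 0.811 and 0.637 CPM) and a log2 fold change of 1.02 (95% interval -0.33 to 2.38, edgeR adjusted p = 0.377). Ccl12 had 18, 15 and 18 counts (0.752, 0.64 and 0.28 CPM) and a log2 fold change of 0.18 (95% interval -1.15 to 1.5, edgeR adjusted p = 0.903). Ccl4 had 3, 13 and 9 counts and was not tested.

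**Figure D4:**
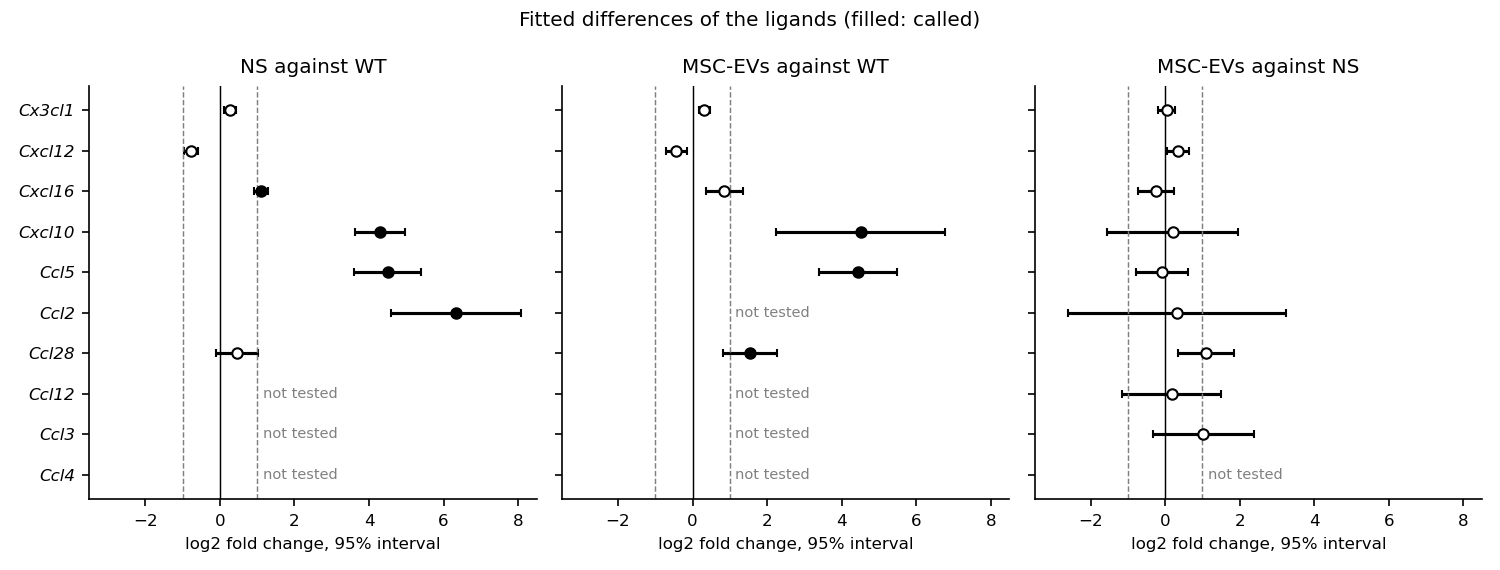
Fitted log2 fold change of each ligand with its 95% interval in the 3 comparisons, from edgeR on 6 libraries each. Filled points passed both limits, open points did not, dashed lines mark a log2 fold change of 1 in size, and ligands with too few counts are marked as not tested. The called ligands lie to the right in both comparisons with WT, and no point is filled between the rd10 groups.

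Within the MSC-EVs group the ligands varied from library to library. MSC-EVs replicate 2 held the highest CPM of its group for 6 of the 10 ligands (Ccl2, Ccl3, Ccl4, Ccl5, Cxcl10 and Cxcl16), and MSC-EVs replicate 3 held the lowest for 5 (Ccl2, Ccl5, Ccl12, Cxcl10 and Cxcl16). The coefficient of variation was 135% for Ccl2 and 83.5% for Cxcl10 with MSC-EVs, against 46.8% and 31.9% with NS. The 14 markers of microglia and macrophages summed to 568, 677 and 385 CPM in MSC-EVs replicates 1, 2 and 3, and the 12 markers of T and NK cells to 8.86, 10.3 and 3.08 CPM, so both lists were highest in replicate 2 and lowest in replicate 3. Their part in the spread of the ligands was not tested.

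MSC-EVs-treated rd10 was also compared with WT. This comparison shares its libraries with both others and is no independent support for either. Of the 10 ligands, 6 had enough counts, and 3 of these were called, all higher than in WT: Ccl5, Cxcl10 and Ccl28. Over all 14623 genes tested, 9% were called higher and 3.2% lower. The log2 fold change was 4.43 for Ccl5 (SE 0.47, edgeR adjusted p = 4.16e-05), 4.51 for Cxcl10 (SE 0.9, edgeR adjusted p = 0.00815) and 1.55 for Ccl28 (SE 0.32, edgeR adjusted p = 0.00285). For Cxcl10 it was 3.59 without MSC-EVs replicate 2 (edgeR adjusted p = 5.57e-05). Ccl5 and Cxcl10 passed the filter only through rd10 here too. Cxcl16 reached 0.85 (SE 0.21, edgeR adjusted p = 0.0126) and was called without MSC-EVs replicate 3, at 1.08. Cx3cl1 reached 0.32 (SE 0.07, edgeR adjusted p = 0.0028). For Cxcl12 the value was -0.43 in counts (SE 0.13, edgeR adjusted p = 0.0187) and 0.11 on log2(FPKM + 1) (limma adjusted p = 0.455). With the adjusted p alone, all 6 passed, 5 higher and 1 lower, where 55.5% of all genes passed. Ccl2 did not pass the filter in this comparison and had a ratio of summed counts to WT of 97.8 with a 95% counting interval of 17.3 to 3880. MSC-EVs replicate 2 held 132 of its 169 counts, and without it the ratio was 27.1 (interval 4.57 to 1100), while it was 201 without MSC-EVs replicate 3, values computed after the data had been seen. Ccl3 was at least 12.3-fold higher than WT against the same floor, with a lower 95% counting limit of 9.75. Ccl12 had a ratio of 9.84 (interval 3.18 to 49.3) and Ccl4 a ratio of 7.23 (interval 1.8 to 63.0). The count of called ligands rose to 5 without any 1 of the WT libraries, through Ccl3 and Ccl12, and to 6 without MSC-EVs replicate 3.

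The receptors of these ligands were measured in the same libraries. Of the 18 chemokine receptors listed, 8 had enough counts in NS-treated rd10 against WT and 4 were called, all higher, Ccr2, Cxcr4 and Cx3cr1 among them, beside 9.16% of all genes tested. Ccr2, the receptor of Ccl2 and Ccl12, had 1, 1 and 0 counts in WT, 55, 25 and 15 counts with NS and 123, 40 and 48 counts with MSC-EVs. It passed the filter only through rd10, and the ratio of summed counts between NS and WT was 42.7 (95% counting interval 11.5 to 358).

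Cx3cr1, the receptor of Cx3cl1, measured 4.76, 5.64 and 4.35 CPM in WT and 13.1, 10.8 and 7.14 CPM with NS. The groups did not overlap, the log2 fold change was 1.08 (SE 0.21, edgeR adjusted p = 0.00132), and the call was lost without NS replicate 1 or without WT replicate 3. Cxcr4, the signalling receptor of Cxcl12, measured 1.61, 1.7 and 2.0 CPM in WT and 8.18, 5.54 and 4.12 CPM with NS, with a log2 fold change of 1.76 (SE 0.26, edgeR adjusted p = 0.000103). Ackr3, which binds Cxcl12 without G protein signalling, measured 3.14, 4.61 and 4.0 CPM in WT and 4.66, 4.36 and 4.62 CPM with NS, with a log2 fold change of 0.21 (SE 0.18, edgeR adjusted p = 0.316). Ccr1, a further receptor of Ccl3 and Ccl5, had 1, 1 and 0 counts in WT, 30, 31 and 9 counts with NS and 49, 55 and 48 counts with MSC-EVs. It had too few counts for the filter in NS against WT, where it was called without a filter and with DESeq2. In MSC-EVs-treated rd10 against WT it was called, as were Ccr2, Cxcr4 and Cx3cr1, at a fitted log2 fold change of 5.56 (SE 0.8, edgeR adjusted p = 0.000313). In that comparison the call of Cxcr4 was lost without WT replicate 1 or without WT replicate 2.

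For the other receptors the counts were low or flat. Cxcr3, the receptor of Cxcl10, had 0, 0 and 1 counts in WT, 12, 2 and 5 with NS and 5, 1 and 12 with MSC-EVs, too few for the filter. Without a filter and with DESeq2 it was called higher in NS-treated rd10 against WT. Cxcr6, the receptor of Cxcl16, measured 0.314, 0.358 and 0.751 CPM in WT and 0.845, 0.539 and 0.137 CPM with NS, with a log2 fold change of 0.18 (SE 0.57, edgeR adjusted p = 0.805). Ccr10, the receptor of Ccl28, measured 1.53, 1.07 and 1.25 CPM in WT and 1.22, 0.833 and 1.01 CPM with NS, a log2 fold change of -0.32 (SE 0.29, edgeR adjusted p = 0.364). Ccr3, another receptor of Ccl5 and Ccl28, had at most 2 counts in any library. No receptor was called between the rd10 groups, where 10 had enough counts. Over all genes tested there, 0.0542% were called higher and 0.00677% lower.

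**Figure D5:**
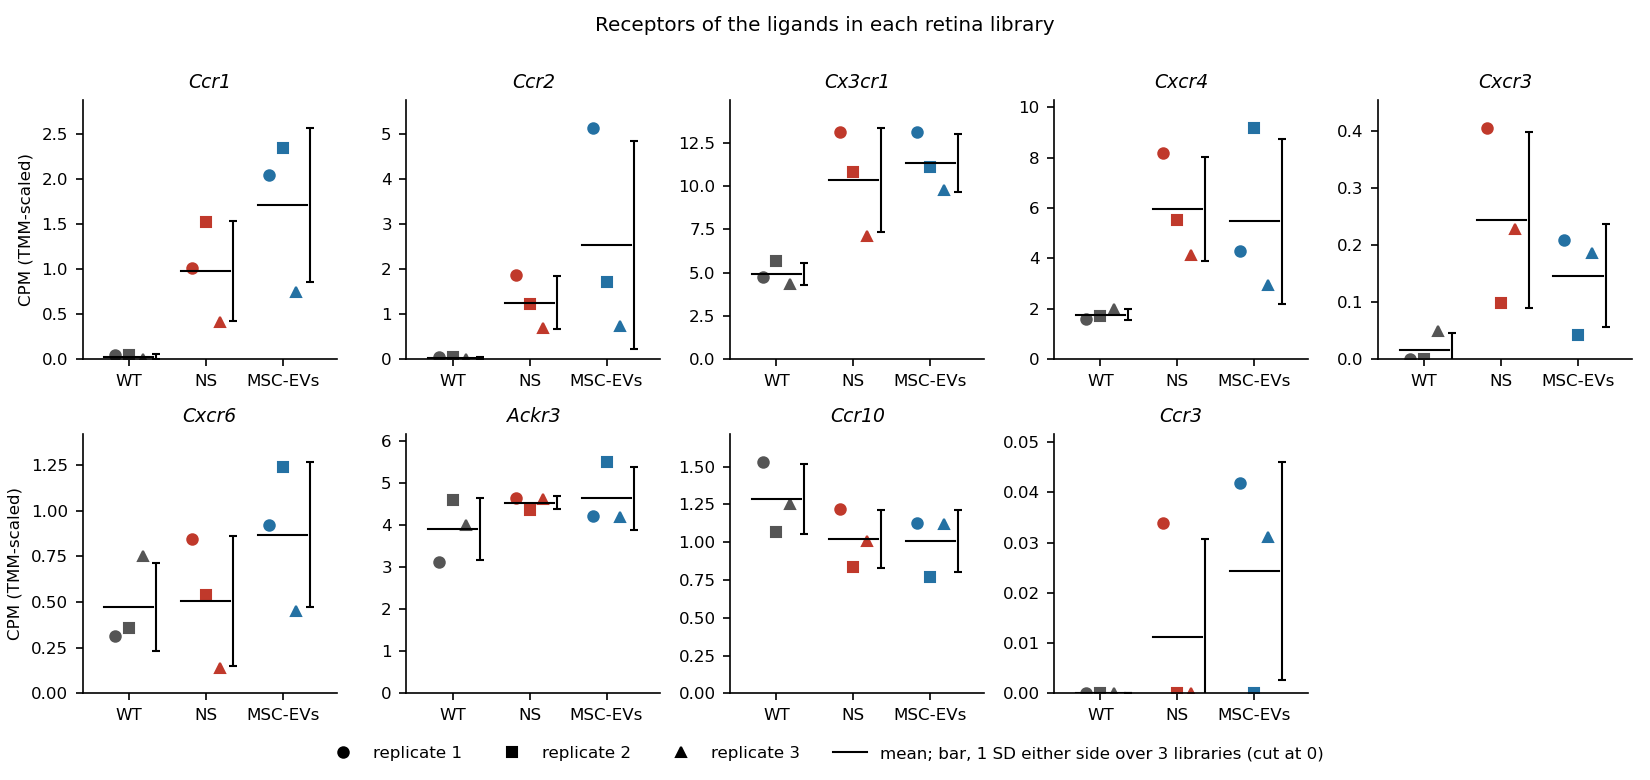
TMM-scaled CPM of 9 receptors of the ligands in each library, with a vertical axis from 0 in every panel, points for libraries (shape gives the replicate), a line for the mean and a bar for 1 SD on either side, cut at 0 (n = 3). Ccr1 and Ccr2 sit near 0 in WT and higher in both rd10 groups, while Ackr3 and Ccr10 overlap between the groups.

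Among 5 atypical receptors, 4 had enough counts in NS-treated rd10 against WT and 2 were called higher, beside 9.16% of all genes tested. Ccrl2, which presents chemerin and does not signal, had a log2 fold change of 2.3 (SE 0.36, edgeR adjusted p = 0.000137), and Ackr4, a scavenger of CC ligands, 1.62 (SE 0.46, edgeR adjusted p = 0.00853), although Ackr4 had under 10 counts in every WT library and 7.2% of its 50-base stretches are shared with Acad11. None of the 3 proteases that process chemokines was called in any of the 3 comparisons, whose shares over all genes are given above. These were Adam10 and Adam17, which shed Cx3cl1 and Cxcl16, and Dpp4, which trims Cxcl10 and Cxcl12. Adam10 had a log2 fold change of 0.22 in NS-treated rd10 against WT (edgeR adjusted p = 0.0177), Adam17 -0.02 (edgeR adjusted p = 0.816) and Dpp4 0.19 (edgeR adjusted p = 0.615).

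Among 14 genes for NF-kB and interferon transcription factors and their regulators, all had enough counts, and 8 were called higher in NS-treated rd10 against WT and none lower, where 9.16% of all genes tested were called higher. With the adjusted p alone, 13 were higher and 1 lower, where 61.3% of all genes passed. The median log2 fold change of the list was 1.78, beside 0.005 for all genes tested. Of the interferon factors, Irf1 measured 5.25, 5.06 and 4.65 CPM in WT and 28.1, 23.0 and 20.7 CPM with NS, a log2 fold change of 2.26 (SE 0.13, edgeR adjusted p = 4.8e-08). Irf7 had 2.7 (SE 0.26, edgeR adjusted p = 0.000281), Irf8 2.53, Irf5 2.35 and Irf9 2.07. Of the NF-kB subunits, Nfkb2 had 2.18 (SE 0.26, edgeR adjusted p = 1.86e-05) and Relb 1.89 (SE 0.21, edgeR adjusted p = 8.85e-06). These were named by size of change. The list also holds the subunits Nfkb1, Rel and Rela, whose values are not reported here. In MSC-EVs-treated rd10 against WT, 9 were called higher, beside 9% of all genes tested. No gene of this list was called between MSC-EVs-treated and NS-treated rd10, where 0.0542% of all genes tested were called higher and 0.00677% lower.

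Beyond the 10 ligands, 29 other chemokine ligands were in the table. In NS-treated rd10 against WT, 8 of them had enough counts, 3 were called higher and 1 lower, beside 9.16% and 3.56% of all genes tested. Of the 3, Cxcl1 and Cxcl9 had at most 1 count in a WT library and passed the filter only through rd10. Cxcl1, an attractant of neutrophils, had 1, 0 and 0 counts in WT, 47, 30 and 28 with NS and 18, 145 and 54 with MSC-EVs, and the ratio of summed counts between NS and WT was 94.4 (95% counting interval 16.6 to 3760). Cxcl9, which like Cxcl10 binds Cxcr3, had 0, 0 and 1 counts in WT, 39, 23 and 10 with NS and 12, 14 and 39 with MSC-EVs, a ratio of 64.8 between NS and WT (interval 11.3 to 2590). Ccl6, a macrophage ligand, measured 0.763, 0.716 and 0.4 CPM in WT and 3.45, 4.02 and 3.3 CPM with NS, a log2 fold change of 2.49 (SE 0.27, edgeR adjusted p = 8.22e-06). Ccl27a was the one called lower, at 7.81, 9.04 and 8.26 CPM in WT and 0.811, 0.882 and 0.961 CPM with NS, a log2 fold change of -3.24 (SE 0.18, edgeR adjusted p = 3.02e-08). For Ccl27a, 45.0% of the 50-base stretches are shared with other genes, so the origin of its reads is uncertain. The same 4 ligands were called in MSC-EVs-treated rd10 against WT, beside 9% of all genes tested called higher and 3.2% lower. There the call of Cxcl1 was lost when any 1 WT library was left out and that of Ccl6 without WT replicate 3. None was called between the rd10 groups with all libraries, where 0.0542% of all genes tested were called higher and 0.00677% lower. Ccl11 was called when MSC-EVs replicate 3 was left out.

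Marker lists of several cell types were compared between WT and rd10, and they did not all move the same way. Of the 14 markers of microglia and macrophages, 12 were called higher in NS-treated rd10 against WT and 14 in MSC-EVs-treated rd10 against WT, beside 9.16% and 9% of all genes tested. Their CPM summed to 79.2 to 86.2 in WT, 477 to 580 with NS and 385 to 677 with MSC-EVs. Aif1 (Iba1) had 8, 4 and 4 counts in WT and 105, 72 and 77 with NS, and Csf1r had a log2 fold change of 2.44 (SE 0.13, edgeR adjusted p = 1.29e-07). Of the 10 markers of monocytes and neutrophils, 6 had enough counts and all 6 were called higher with NS, but 4 of the 6 had under 10 counts in every WT library and passed the filter only through rd10. The 10 markers had a summed CPM of 79.7 to 82.7 in WT, 201 to 299 with NS and 204 to 308 with MSC-EVs. Ly6c2 had 0, 2 and 0 counts in WT and 224, 47 and 33 with NS, while S100a8 had 0 counts in every WT library and 0, 7 and 6 with NS. The 12 markers of T and NK cells summed to 1.07 to 1.66 CPM in WT, 4.66 to 9.39 with NS and 3.08 to 10.3 with MSC-EVs. In a WT library 6 to 8 of the 12 were at 0, and Cd3d, Cd3e and Nkg7 had no count in any. Only 1 of the 12 had enough counts in each comparison with WT, where it was called higher, beside 9.16% and 9% of all genes tested. Of the 10 rod markers, 9 were called lower with NS and none higher, beside 3.56% of all genes tested called lower, with a summed CPM of 77600 to 83200 in WT and 15500 to 22400 with NS. Of the 8 markers of Müller glia, 3 were called higher with NS. None of the 8 markers of endothelium and pericytes reached the limit on the fold change. With the adjusted p alone all 8 were higher with NS, where 61.3% of all genes passed, at a median log2 fold change of 0.67. Their CPM summed to 306 to 322 in WT and 532 to 537 with NS. Called higher with NS were also 5 of 6 markers of astrocytes and gliosis, 3 of 8 of the retinal pigment epithelium and 3 of the 5 tested of fibroblasts. These counts stand beside 9.16% of all genes tested. None of the 8 cone markers and none of the 12 markers of inner retinal neurons was called with NS. The part of these cell types in the ligand differences was not tested.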

How the data were processed

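Poly(A)-enriched retinal RNA was sequenced on an Illumina platform as 9 libraries, grouped by the treatment and genotype labels. For each gene and library the authors deposited an expected count, not scaled to depth, and an FPKM value, scaled by the authors to transcript length and depth. The submitters' processing notes name fastp, Bowtie2, HISAT2, StringTie 1.3.1 and RSEM. Which tool gave the values, the build and the annotation are not given in the sources used here. Decimals stood in the counts of 9.16% to 11.7% of genes, depending on the library, and the counts were rounded to whole numbers, where the planned test had assumed whole counts. No value column was left without a library.

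Fits were made for each pair of groups from 6 libraries, using edgeR 4.0.16 under R 4.3.3 (filterByExpr, TMM, robust glmQLFit, glmQLFTest), with Benjamini-Hochberg adjustment over all genes tested. The standard error is the size of the log2 fold change divided by the square root of F. The fit was tested on simulated data with known changes. CPM uses TMM factors over 9 libraries. Ratios of summed counts are scaled to effective library size, and their 95% intervals are exact binomial (Clopper-Pearson) and cover counting error only. A group with no count is set to a floor of 3 counts. The implied length is the count divided by the FPKM and the library's total, scaled to bases, for genes with at least 100 counts and an FPKM of at least 1. Shared sequence was the part of 50-base stretches of a gene's transcripts found in transcripts of other genes (GENCODE M21, GRCm38, which holds 22283 of the identifiers). Strand in the counting is not stated, so reads of overlapping genes on opposite strands may be mixed.

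The 10 ligands and all lists were chosen with earlier results of these data known. Named were the ligands, their receptors, and of the other lists the called genes, up to 8 a list by size of change, and for cell types up to 3 defining markers. Some genes that this rule names are not reported here. Alternatives were other size factors, the Wald test of DESeq2 1.42.0, other filters, 1 fit of all 9 libraries, a replicate block, limma 3.58.1 on log2(FPKM + 1) and log2(FPKM + 0.1) for genes with an FPKM of at least 0.1 in 3 libraries, Y-linked expression as a covariate, no limit on the fold change, and leaving out each library.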

Additional observations from a re-analysis of the deposited data

How the results depend on the processing

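The called ligands in NS-treated rd10 against WT were Ccl2, Ccl5, Cxcl10 and Cxcl16 with other size factors, with limma on log2(FPKM + 1), and without any 1 library (4 ligands each time). DESeq2, no filter, 1 fit of all 9 libraries and log2(FPKM + 0.1) added Ccl3 and Ccl12. Asking for 10 counts in every library left 1 ligand, Cxcl16, since this filter drops genes near 0 in WT. In MSC-EVs-treated rd10 against WT, the 3 called ligands became 6 with no limit on the fold change, 6 with DESeq2, 6 without a filter, 6 in 1 fit of all 9 libraries, 7 with log2(FPKM + 0.1) and 1 with 10 counts in every library, and 3 to 6 when 1 library was left out. Between the rd10 groups, DESeq2 called 1 ligand (Ccl28), and leaving out 1 library gave 0 to 1. Deviations of same-numbered libraries from their group means had correlations of 0.09, 0.2 and 0.28 between the rd10 groups. Against WT these correlations ran from -0.07 to 0.07. According to the paper, littermates among the rd10 mice were given MSC-EVs or NS. The labels do not say whether a replicate number marks a litter, so the main fits leave pairing out, and these correlations cannot decide it. With the replicate block the ligands called numbered 4, 0 and 3, as without it, and only the uncalled differences of Ccl2 (-0.27) and Cxcl10 (-0.06) between the rd10 groups changed sign. The same differences were -0.13 and -0.06 with limma on log2(FPKM + 1), -0.45 and -0.11 with log2(FPKM + 0.1), and -2.28 and -1.44 with Y-linked expression as a covariate, where Ccl12 was -0.72. Leaving out 1 library moved Ccl2 between -1.88 and 0.89, Cxcl10 between -0.72 and 0.65, Ccl12 between -0.18 and 0.93, Ccl5 between -0.37 and 0.18, and Cx3cl1 between -0.05 and 0.1. In MSC-EVs-treated rd10 against WT, Cxcl12 turned from -0.43 to 0.11 with limma on log2(FPKM + 1) and to 0.12 with log2(FPKM + 0.1), a change of scale whose length term is given above, and Ccl28 fell under the limit on the fold change at 0.7. The FPKM scale shifted the median of all genes by 0.132 and 0.182 in NS-treated rd10 against WT and by 0.113 and 0.153 in MSC-EVs-treated rd10 against WT. On log2(FPKM + 1), Cxcr4 was the only receptor called in NS-treated rd10 against WT, and 2 receptors, Cxcr4 among them, were called in MSC-EVs-treated rd10 against WT. Over all genes, this scale called 989 in NS-treated rd10 against WT in place of 1863, and 1016 in MSC-EVs-treated rd10 against WT in place of 1784. Between the rd10 groups the 9 genes called became 40 with DESeq2, 38 in 1 fit of all 9 libraries, 21 with the replicate block, 28 with Y-linked expression as a covariate and 2 with limma on either FPKM scale, and 0 to 82 when 1 library was left out, the lowest on dropping NS replicate 3 or MSC-EVs replicate 1 and the highest on dropping MSC-EVs replicate 2. The causes of the other changes were not tested. Ccl3, Ccl4 and Ccl12 had at most 41 counts in a library, and whether they were tested and called depended on the filter and the test.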
